A study of Mus musculus with 2 samples.

Results

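The genes described here make, carry and sense extracellular adenosine and ATP. They are Nt5e, which encodes the ectonucleotidase CD73, together with Entpd1, Entpd5, Adora2a, Adora2b, Adk, Slc29a1, P2rx4, P2rx7 and P2ry2. Members were all probe sets of the array that the probe annotation assigned to 1 of these 10 genes and to no other gene. This gave 27 of 45101 probe sets, covering 8 of the 10 genes. No such probe set was found for Adora2a or Adora2b in the annotation used, and these 2 genes were not analysed here. The 27 probe sets were 3 for Nt5e, 3 for Entpd1, 6 for Entpd5, 6 for Adk, 1 for Slc29a1, 4 for P2rx4, 3 for P2rx7 and 1 for P2ry2.

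RNA came from primary osteoblasts, the bone-forming cells, of the skull caps of 5-day-old C57BL/6 mice. One culture was treated with medium at 4 mM phosphate and the other, the control, stayed in unmodified medium at 1 mM phosphate, both at pH 7.2, without serum, for 6 h after a night of serum starvation. Before that the cells, freed with collagenase and dispase, had grown for 3 days with 10% serum. The added phosphate was a sodium salt, so the treated culture also received more sodium. Each condition had 1 array, which leaves no replicate error, no test and no p-value. Whether cells of several mice were pooled is not stated in the labels.

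Cells release ATP, and enzymes on their surface take it apart step by step. The ectonucleotidase CD39, the product of Entpd1, turns ATP and ADP into AMP, and CD73 turns AMP into adenosine and free phosphate. Adenosine then acts on its receptors, among them the cAMP-raising receptors of Adora2a and Adora2b, or is taken up by the equilibrative nucleoside transporter of Slc29a1 and turned back into AMP inside the cell by adenosine kinase, the product of Adk. ATP itself opens the ion channels P2X4 and P2X7 and activates the G protein-coupled receptor of P2ry2. In mice, CD73 is known to promote osteoblast differentiation, and in people its loss leads to calcification of arteries.

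RefSeq promoter windows of 300 bases (250 before to 50 after an annotated start, build GRCm38.p6) were found for 9 of the 10 genes, 20 windows in all, some of them overlapping windows of 1 gene. They are shown for Nt5e, the member that differed most between the arrays, and for 2 members that differed less and whose windows hold an AP-1 motif or a CRE core, which the Nt5e window lacks. Capitals mark 1 motif per window, as matches on either strand to the Sp1 box GGGCGG in Nt5e (chr9:88327359-88327658, plus strand), to the AP-1 motif TGANTCA in the upstream window of P2rx7 (chr5:122643677-122643976, plus strand) and to the CRE core TGACG in Entpd5 (chr12:84408980-84409279, minus strand).
Nt5e: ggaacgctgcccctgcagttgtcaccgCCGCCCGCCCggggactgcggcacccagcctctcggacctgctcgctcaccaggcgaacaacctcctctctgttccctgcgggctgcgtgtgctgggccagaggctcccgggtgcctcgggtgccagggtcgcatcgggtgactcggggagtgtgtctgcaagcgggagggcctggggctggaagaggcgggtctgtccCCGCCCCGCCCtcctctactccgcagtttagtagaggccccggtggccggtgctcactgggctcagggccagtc
P2rx7: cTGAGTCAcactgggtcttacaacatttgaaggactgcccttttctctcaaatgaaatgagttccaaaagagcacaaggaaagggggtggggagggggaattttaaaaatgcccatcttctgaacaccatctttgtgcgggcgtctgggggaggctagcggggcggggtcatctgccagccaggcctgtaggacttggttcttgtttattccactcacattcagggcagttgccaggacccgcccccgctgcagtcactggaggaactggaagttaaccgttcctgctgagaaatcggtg
Entpd5: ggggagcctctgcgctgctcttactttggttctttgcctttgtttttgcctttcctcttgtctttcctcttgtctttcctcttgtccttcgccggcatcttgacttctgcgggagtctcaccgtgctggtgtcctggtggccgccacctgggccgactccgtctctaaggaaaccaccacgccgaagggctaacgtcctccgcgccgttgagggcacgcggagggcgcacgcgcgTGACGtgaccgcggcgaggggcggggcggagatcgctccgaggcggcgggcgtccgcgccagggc
The Nt5e window held 4 matches to the Sp1 box, in 2 overlapping pairs that begin 223 and 219 bases and 24 and 19 bases before the start. It held 0 matches to AP-1, to the CRE core, to the full CRE TGACGTCA or to the HIF core ACGTG. The P2rx7 and Entpd5 windows shown also hold 2 Sp1 boxes each, left in lower case. The Entpd5 window holds 1 HIF core, which overlaps the marked CRE core and so is partly in capitals. Sp1 boxes were as many or more in other members, with 4 in each window of Adk and P2ry2 and 6 in that of Adora2b. Over all members, 14 of 20 windows held a Sp1 box, 6 a CRE core, 6 a HIF core, 1 the AP-1 motif and 0 the full CRE. Slc29a1 alone has 8 of the 20 windows, and the 2 of P2ry2 overlap, so the windows are not independent. Of 32817 RefSeq windows of this length, 35.6% held a Sp1 box, 20.8% a CRE core, 19.6% a HIF core, 7.81% the AP-1 motif and 1.79% the full CRE. The CRE core is contained in the full CRE, so these matches overlap. The matches describe letters in these windows and say nothing of binding.

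Signals are MAS5 intensities on a linear scale, and both arrays had been scaled to the same trimmed mean. A probe set counts as measured when at least 1 array exceeds a floor of 21.5, the pooled median of both arrays, and lower signals were raised to the floor before a ratio was taken. Of the 27 member probe sets, 15 were above the floor on both arrays, 4 on 1 array and 8 on neither, so 7 of the 8 genes gave a ratio. Each gene is represented by its brightest probe set, and a ratio with 1 array at the floor is a bound. Error is technical only, taken as the SD between log2 ratios that belong to 1 gene and the same range of signal, pooled over the whole array. It was 0.42 where the dimmer signal was at most 100, 0.26 up to 400 and 0.16 above 400, and it includes real differences between transcript forms. It leaves out gaps between probe sets of a gene in different ranges. Error between arrays or between cultures is not part of it either.

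Control RNAs added to the samples differed between the arrays, which bears on every ratio given here. The 24 probe sets of the poly-A spikes, bacterial RNAs carried through labelling, were all brighter in 4 mM phosphate, by a median log2 ratio of 0.46. The 18 probe sets of the hybridisation spikes, added after labelling, were brighter by a median of 0.23. Setting either to equal signal, the poly-A or the hybridisation reference, moves every log2 ratio down by that amount, so any ratio below that amount and above 0 turns negative.

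**Figure D1:**
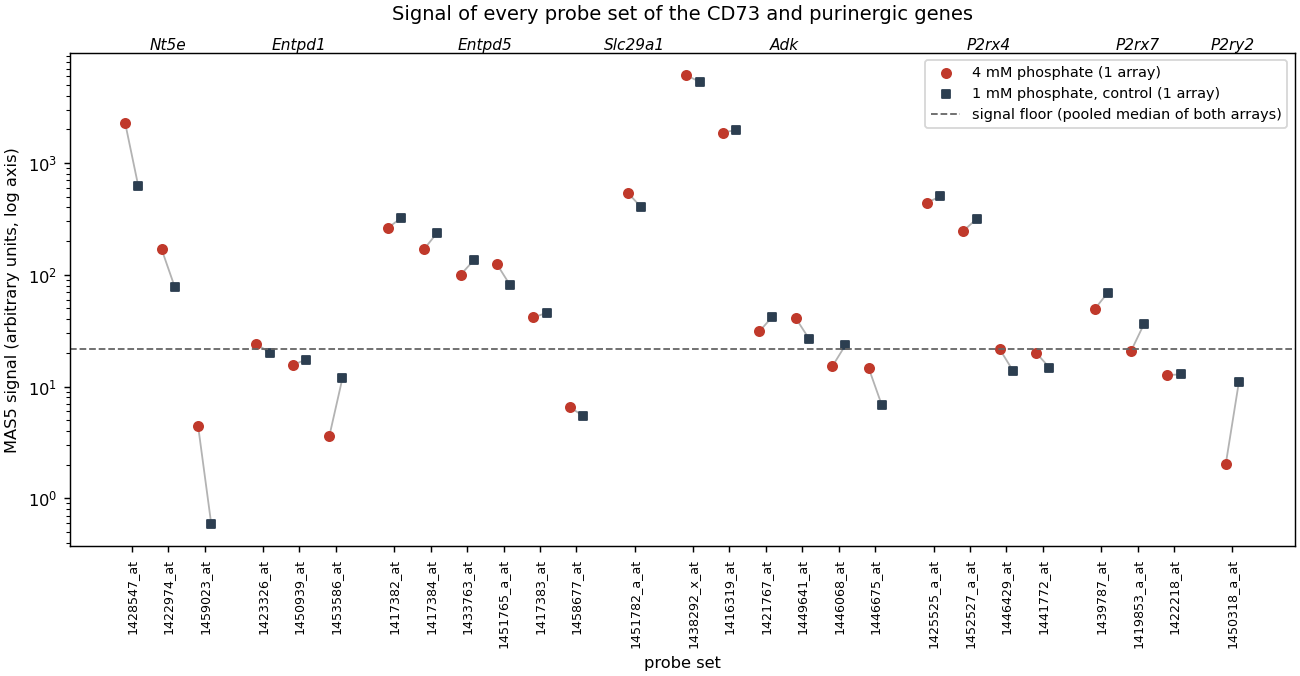
MAS5 signal (log axis, arbitrary units) of all 27 probe sets, grouped by gene, on the 4 mM phosphate array (circles) and the 1 mM control array (squares), with the floor of 21.5 dashed. The brightest Nt5e probe set has the widest gap among probe sets that exceeded the floor on each array, 2260 in 4 mM phosphate against 617 in the control, and the points below the floor carry no order.

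The arrays compare gene expression of osteoblasts after hours in a raised phosphate concentration with that of untreated cells. Of 7 measured members, 1 was at least 2-fold higher in 4 mM phosphate, and that was Nt5e. None was 2-fold lower, and the other 6 lay within 1.5-fold. Of 12276 genes measured on the arrays, the share past 2-fold was 2.3% upward and 2.92% downward, and past 1.5-fold it was 7.26% upward and 12.1% downward. In genes this was 282 higher and 359 lower past 2-fold, against 129 and 1732 by the poly-A reference and 174 and 807 by the hybridisation reference. The median log2 ratio of the 7 members was 0.16, beside -0.06 over all measured genes. That median is the value of Entpd1, a bound near the floor that is smaller than its technical SD of 0.42. Over the 6 members above the floor on both arrays the median was 0.0018.

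Nt5e, the gene of the enzyme that forms adenosine from AMP, had a signal of 2260 in 4 mM phosphate and 617 in the control on its brightest probe set (1428547_at). The ratio was 3.66-fold (log2 1.87 ± 0.16, technical SD). A dimmer probe set (1422974_at) had 168 in 4 mM phosphate and 77.5 in the control, a ratio of 2.17-fold (log2 1.12 ± 0.42). Both probe sets above the floor were thus more than 2-fold higher in 4 mM phosphate, and they differed from each other by 0.75 in log2 ratio. The third Nt5e probe set (1459023_at) was below the floor on both arrays and gave no ratio. Among the 4954 genes with 2 or more probe sets that exceeded the floor on each array, for 50 (1.01%) each one was at least 2-fold higher. By its brightest probe set Nt5e ranked 66th from the top of the 12276 measured genes, and 0.529% of genes had a higher ratio.

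The gap between the Nt5e probe sets was larger than the range in 84.5% of those 4954 genes, whose median range was 0.33. The dimmer probe set carries the larger technical error, and its ratio was 2.66 times its technical SD, against 11.6 times for the brighter one. These multiples leave out error between arrays or cultures and the gap between the Nt5e probe sets, so they do not measure how repeatable the difference is. Scaling on either set of spikes left Nt5e above 2-fold on the brightest probe set, at 1.41 by the poly-A reference and 1.64 by the hybridisation reference. On the dimmer probe set the log2 ratio was 0.66 by the poly-A reference and 0.89 by the hybridisation reference, both short of 2-fold, as was the 0.94 with a pseudocount. With the floor at 100 the control signal of that probe set, 77.5, lay below the floor, which leaves only a bound.

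**Figure D2:**
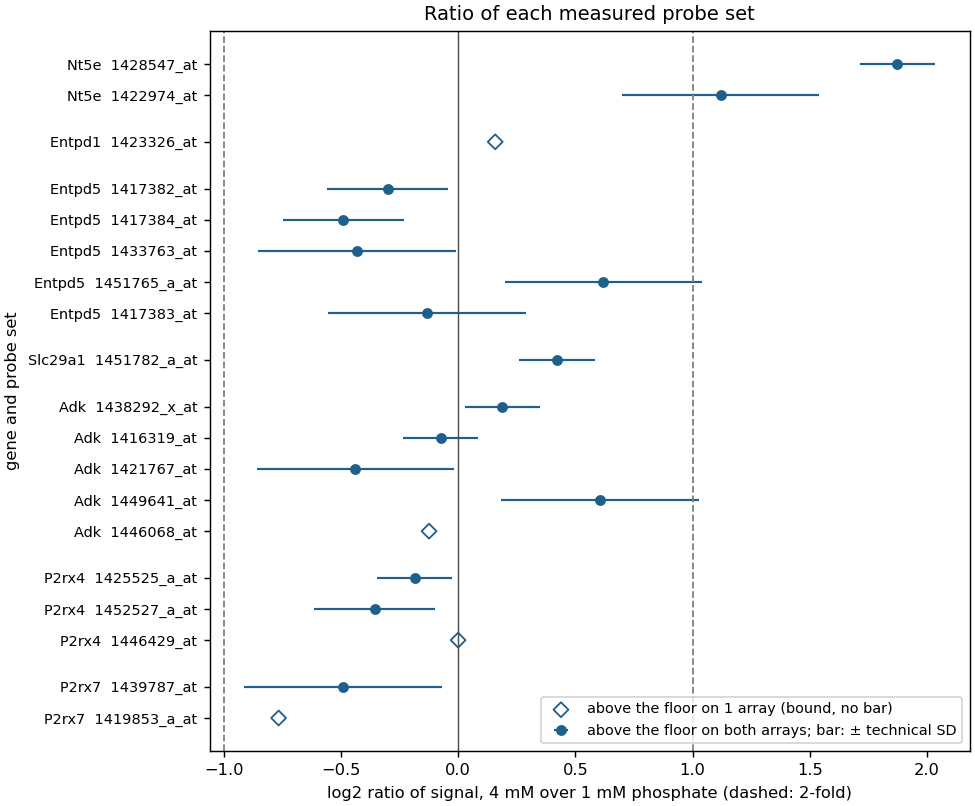
Log2 ratio of signal, 4 mM over 1 mM phosphate, for the 19 measured probe sets of 7 genes, with bars of ± 1 technical SD for the 15 that exceeded the floor on each array and open diamonds for the 4 bounds. The 2 Nt5e points lie to the right of the 2-fold line, and every other point lies between the 2-fold lines.

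Entpd1, the gene of CD39, the enzyme that acts before CD73, was close to background: its brightest probe set (1423326_at) had 24.0 in 4 mM phosphate and 20.1, below the floor, in the control. This made it at least 1.12-fold higher, a bound of 0.16 in log2 ratio that is smaller than the technical SD of 0.42. The other 2 Entpd1 probe sets were below the floor on both arrays. The data therefore give no usable direction for Entpd1.

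Entpd5 encodes a related enzyme that acts mainly on UDP and GDP inside the secretory pathway. Its brightest probe set (1417382_at) had 261 in 4 mM phosphate and 321 in the control, a log2 ratio of -0.30 ± 0.26. The next (1417384_at) had 169 in 4 mM phosphate and 238 in the control, at -0.49 ± 0.26. These probe sets were lower in 4 mM phosphate by between 1 and 2 technical SDs. Dimmer ones gave -0.43 (1433763_at) and -0.13 (1417383_at), each with a technical SD of 0.42. One probe set (1451765_a_at) ran the other way, with 124 in 4 mM phosphate and 80.8 in the control, a log2 ratio of 0.62 ± 0.42. Its suffix marks probes shared by several transcripts of the gene. The range over the 5 measured Entpd5 probe sets was 1.11, larger than in 95.8% of the genes with several such probe sets.

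The genes that remove adenosine from outside the cell stayed within 1.5-fold. Slc29a1, which encodes the nucleoside transporter ENT1, had 537 in 4 mM phosphate and 401 in the control on its single probe set (1451782_a_at). The ratio was 1.34-fold higher in 4 mM phosphate (log2 0.42 ± 0.16), 2.61 times the technical SD, and 11.7% of measured genes had a higher ratio. By the poly-A reference it became -0.043, so its direction depends on the scaling.

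Adk, the gene of adenosine kinase, was bright on 2 probe sets. One (1438292_x_at) had 6087 in 4 mM phosphate and 5338 in the control, a log2 ratio of 0.19 ± 0.16, and its suffix marks probes that may also match other transcripts. The other (1416319_at) had 1874 in 4 mM phosphate and 1973 in the control, at -0.074 ± 0.16. The bright probe sets of Adk thus pointed in opposite directions, each by little more than 1 technical SD or less. Dim probe sets gave 0.60 (1449641_at) and -0.44 (1421767_at), both with a technical SD of 0.42, and 1 more (1446068_at) gave a bound of -0.12. The gene had a log2 ratio of -0.074 with the median over its probe sets, -0.041 by the hybridisation reference and -0.27 by the poly-A reference.

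The 2 measured receptors for ATP had lower signals in 4 mM phosphate, by less than 1.5-fold on their brightest probe sets. P2rx4, the gene of an ATP-gated cation channel found on many cells, macrophages included, had 442 in 4 mM phosphate and 502 in the control on its brightest probe set (1425525_a_at), a log2 ratio of -0.19 ± 0.16. Another probe set (1452527_a_at) had 247 in 4 mM phosphate and 316 in the control, at -0.36 ± 0.26. These 2 probe sets differed by 0.17, and 27.4% of the genes with several such probe sets had a smaller range. The remaining 2 P2rx4 probe sets were at the floor or below it and gave no direction, 1 of them with a phosphate signal that only just reached the floor of 21.5.

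P2rx7, the gene of an ATP-gated channel that needs high ATP to open and is known from macrophages and osteoblasts, was dim. Its brightest probe set (1439787_at) had 49.2 in 4 mM phosphate and 69.0 in the control, a log2 ratio of -0.49 ± 0.42. Another (1419853_a_at) had 20.8, below the floor, in 4 mM phosphate and 36.5 in the control, which made it at least 1.70-fold lower. Both pointed the same way, and 83.9% of measured genes had a higher ratio than P2rx7. The last P2rx7 probe set (1422218_at) was below the floor on both arrays. P2ry2, the gene of a receptor for ATP and UTP, was also below the floor on both arrays on its single probe set (1450318_a_at), so no ratio is given.

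**Figure D3:**
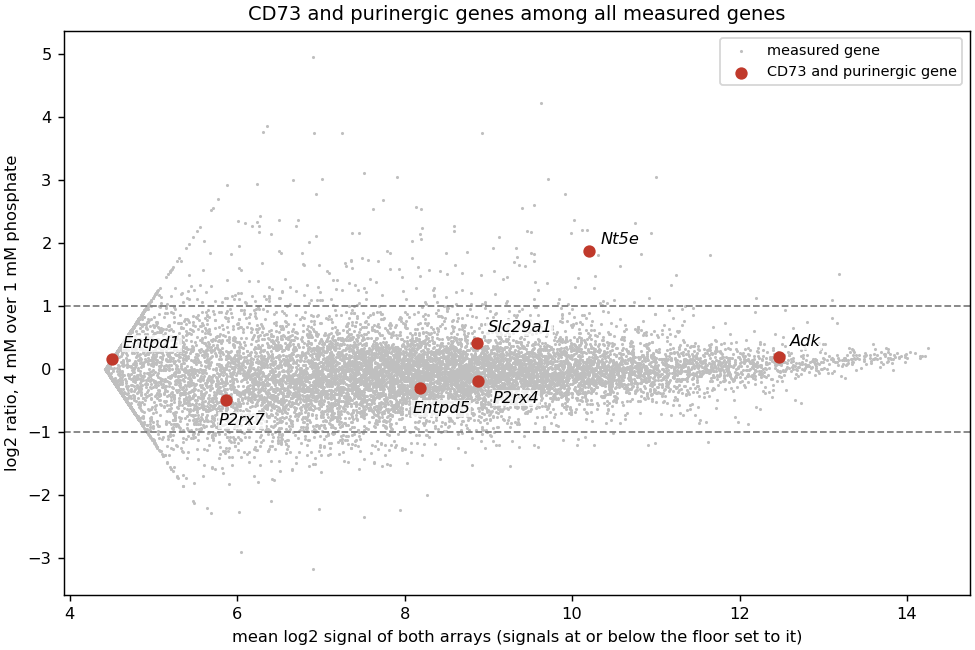
Log2 ratio, 4 mM over 1 mM phosphate, against mean log2 signal for the 12276 measured genes (grey) and the 7 measured CD73 and purinergic genes (red), with the 2-fold lines dashed. Nt5e, at 1.87, lies above the 2-fold line, and the other 6 lie between -0.49 and 0.42 within the main cloud of genes.

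Macrophages also express the P2X receptors and CD39, and their markers were present in these cultures. Of 19 macrophage and osteoclast markers, 17 were measured, 15 of them below 0 (beside 55.9% of all measured genes), with a median log2 ratio of -0.36. Their summed signal was 20028 in 4 mM phosphate and 21943 in the control. The brightest markers, Lyz2 and Ctsk, weigh most in this sum, and Lyz2 had 7745 in 4 mM phosphate and 7895 in the control. Csf1r, the receptor gene of the macrophage growth factor, had 1043 in 4 mM phosphate and 1539 in the control on its brightest probe set. Its 3 measured probe sets had log2 ratios from -0.56 to 0.15. Cd14 went against the list with 671 in 4 mM phosphate and 291 in the control. Ctsk was slightly above 0, with 4376 in 4 mM phosphate and 4097 in the control, while Itgam and Calcr were at the floor. In such bulk RNA fewer cells of a type and less RNA per cell cannot be told apart, and the part of these cells in the ratios of P2rx4, P2rx7 and Entpd1 was not tested. Of 8 endothelial markers, 0 were above the floor on either array. Runx2, Bglap and Spp1 had no probe set of their own in the annotation used. The other 7 of 10 osteoblast markers were measured and within 1.5-fold, 4 of them above 0 and 3 below. Among them Col1a1 had 11889 in 4 mM phosphate and 10139 in the control, and Sp7 had 1223 in 4 mM phosphate and 1600 in the control.

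CD73 is itself a surface marker of mesenchymal progenitors, so their other markers were read beside it. All 6 measured markers of mesenchymal progenitors and pericytes were within 1.5-fold, 4 above 0 and 2 below, with a median log2 ratio of 0.08. Thy1 had 1664 in 4 mM phosphate and 1265 in the control, and Eng had 310 in 4 mM phosphate and 288 in the control. The 2 below 0 were Rgs5, a dim marker at -0.38, and Pdgfrb at -0.12, whose other probe set gave 0.34. The summed signal of all 6 was 4889 in 4 mM phosphate and 4501 in the control.

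The wider set of purinergic genes showed few differences of this size. Of 54 other genes for nucleotide release, breakdown, handling and reception, 45 had a probe set of their own, 14 of these were at the floor and 31 were measured. Of the 31, 1 was at least 2-fold higher and 0 were 2-fold lower, beside 2.3% and 2.92% of all measured genes. Their median log2 ratio was -0.17, and 24 of 31 lay within 1.5-fold.

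The gene past 2-fold was Ak4, which encodes an adenylate kinase of mitochondria, with 488 in 4 mM phosphate and 219 in the control (2.22-fold, log2 1.15). Its 3 measured probe sets had log2 ratios between 1.04 and 1.15. It fell short of 2-fold with either set of spikes as reference. In the same list of 13 measured genes for adenosine and nucleoside handling, the lysosomal nucleoside transporter gene Slc29a3 was lowest at -0.82. Its brightest probe set had 97.9 in 4 mM phosphate and 173 in the control, and passed 2-fold with either set of spikes. The other measured probe set of Slc29a3 gave -0.36. The list's median was -0.074.

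Among 7 measured further ectonucleotidases and related enzymes, 6 were below 0 and the median was -0.19. Entpd3, encoding another surface enzyme that breaks down ATP and ADP, had 245 in 4 mM phosphate and 487 in the control, a log2 ratio of -0.99 that stops just short of 2-fold. It passed 2-fold by the poly-A reference (-1.45) and by the hybridisation reference (-1.22). Enpp3, a nucleotide pyrophosphatase gene, was the highest at 0.46, with 49.1 in 4 mM phosphate and 35.8 in the control. Alpl, the alkaline phosphatase gene whose product can also turn AMP into adenosine, had 3373 in 4 mM phosphate and 3840 in the control, at -0.19. Of the ectonucleotidases measured here, Nt5e alone was past 2-fold upward.

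Genes for the release of nucleotides had the highest median of the receptor, enzyme and release lists with more than 2 measured genes, 0.41 over 6 genes, and none reached 2-fold. Slc17a9, which encodes the transporter that loads ATP into vesicles, was highest with 59.4 in 4 mM phosphate and 33.0 in the control (log2 0.85), although its other probe set gave -0.18. Panx3, a pannexin channel gene of osteoblasts and cartilage, was lowest with 3897 in 4 mM phosphate and 6025 in the control (log2 -0.63), and its dimmer probe sets ranged from -1.24 to 0.38. Gja1, the gene of the main gap junction connexin of bone cells, was singled out after its values were seen. It had 7979 in 4 mM phosphate and 5059 in the control (log2 0.66), and its 6 probe sets had log2 ratios from 0.63 to 1.02. On the brightest probe set the ratio fell to 0.19 by the poly-A reference and 0.43 by the hybridisation reference.

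Other receptors of the family were mostly below the floor. Of 5 further P2X and 7 further P2Y genes, 2 of each were measured. P2rx5 was the lowest with 23.2 in 4 mM phosphate and 36.7 in the control (log2 -0.66). P2ry14, a receptor for UDP-sugars, had 28.3 in 4 mM phosphate and 11.7, below the floor, in the control, at least 1.32-fold higher. The brightest probe set of P2rx6 was above the floor in the control only. P2ry6, a UDP receptor gene, was brighter, with 83.5 in 4 mM phosphate and 101 in the control (log2 -0.27). Adora3, the single adenosine receptor gene with a value, had 28.0 in 4 mM phosphate and 17.2, below the floor, in the control, at least 1.31-fold higher. The bounds of P2ry14 (log2 0.40) and Adora3 (log2 0.38) were smaller than the technical SD of 0.42. By the poly-A reference they became -0.067 for P2ry14 and -0.079 for Adora3, so neither gene has a usable direction.

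**Figure D4:**
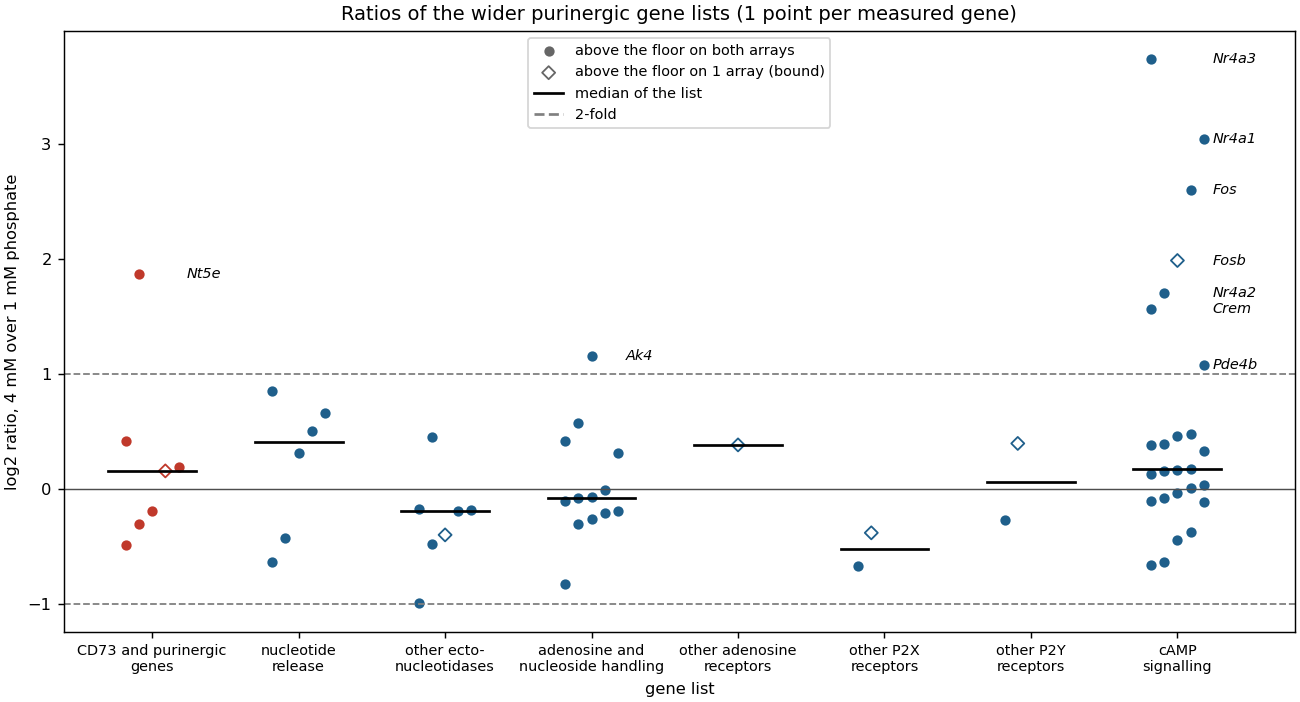
Log2 ratio, 4 mM over 1 mM phosphate, of each measured gene in the CD73 and purinergic set (red) and in 7 wider lists (blue), with list medians as black bars and bounds as open diamonds. Outside the cAMP list, Nt5e at 1.87 and Ak4 at 1.15 are the points above the 2-fold line.

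Signals through the receptors of Adora2a and Adora2b run over cAMP, so a list of cAMP signalling genes was read as well. Adora2a and Adora2b themselves gave no value. The list was chosen with earlier results of these data known, so its counts are descriptive and test nothing. Of its 26 measured genes, 7 were at least 2-fold higher and 0 were 2-fold lower, beside 2.3% and 2.92% of all measured genes. The median was 0.17, and 17 of the 26 lay within 1.5-fold. Those 7 were Nr4a3 (log2 3.74), Nr4a1 (3.04), Fos (2.59), Fosb (a bound of 1.99), Nr4a2 (1.70), the transcription factor gene Crem (1.57) and the phosphodiesterase gene Pde4b (1.08). Pde4b fell short of 2-fold by the poly-A (0.61) and the hybridisation reference (0.85), with the pseudocount (0.83) and with the floor at the 65th percentile (0.62) or at 100 (0.11). Fosb was at 0.27 with the floor at the 65th percentile. One of the 6 measured Nr4a2 probe sets ran the other way, at -0.58. Many of the 7 are early response genes that other signals induce too. Adcy7, an adenylate cyclase gene, was the lowest at -0.66 with 141 in 4 mM phosphate and 224 in the control, and Gnas, the gene of the G protein subunit that couples these receptors to adenylate cyclase, was at 0.17.

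Over 11 alternative settings, Nt5e was above 2-fold in 11 on its brightest probe set or their median, Entpd5 and P2rx4 were below 0 in 11 each, and P2rx7 was below 0 in the 9 that measured it. Slc29a1 was above 0 in 10, Adk in 8 of 11 and Entpd1 in 6 of the 8 that measured it. Apart from Nt5e, no member reached 2-fold in any of them. The settings are not independent checks. Removing or moving the floor, or asking both arrays to exceed it, left the values of Nt5e, Entpd5 and P2rx4 unchanged. The spike references only lower ratios, so a ratio below 0 had to stay below 0 there.

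**Figure D5:**
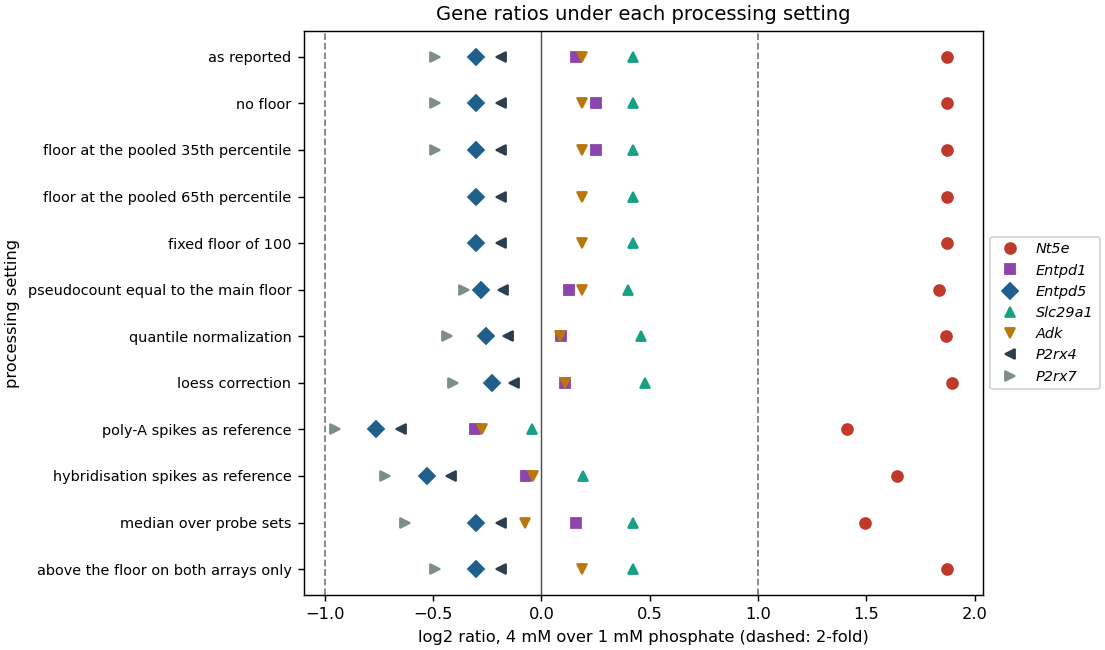
Log2 ratio of each measured CD73 and purinergic gene (4 mM over 1 mM phosphate) as reported and under 11 alternative settings, with the 2-fold lines dashed. Nt5e stays between 1.41 and 1.89, right of the 2-fold line, while Slc29a1, Adk and Entpd1 cross 0 under at least 1 of the settings.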

How the data were processed

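The deposited values are intensity values, 1 per probe set and array, on a linear scale. They were made by the authors with MAS5 in GCOS 1.4, per the submitters' processing notes, from cRNA of 100 ng total RNA, per the labels' protocols. MAS5 subtracts background and scales each array by 1 factor, so a change of total mRNA per cell would not show, and leaves dim probe sets noisy. Detection calls were not used here.

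Of 45101 probe sets, 64 were controls; 34945 named 1 gene, 932 several and 9160 none. Symbols were updated by Entrez identifier against RefSeq (GRCm38.p6); 34741 probe sets matched and 0 symbols changed. Signals under the pooled median of 21.5 were set to it before log2 ratios, 4 mM minus 1 mM phosphate, were taken. Called means at least 2-fold. The brightest probe set stood for its gene. Precision is limited by there being 1 array per condition.

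All members could be named, and of the wider lists those at least 2-fold different plus the highest and lowest of each list; marker genes could be named freely. The members and lists were chosen with earlier results of these data known. Groups came from the sample labels. The alternatives were other floors, a pseudocount, quantile and loess scaling (statsmodels 0.14.6), spike references, the median over probe sets, and a stricter rule that each array exceed the floor. The calculation was tested on simulated data. Python 3.11.15 was used with numpy 2.4.6 and pandas 2.3.3.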

Additional observations from a re-analysis of the deposited data

Results flagged for a closer look

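Spike probe sets take no part in the gene ratios, and their signal differed between the arrays. The poly-A spikes were brighter on the 4 mM phosphate array by 0.46 in median log2 ratio, and all 24 probe sets lay between 0.20 and 0.65. Groups of 1 array allow no search for outlying samples.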

How the results depend on the processing

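Nt5e was the member at least 2-fold higher, and 0 members were 2-fold lower, as reported and under all 11 alternatives. Its log2 ratio of 1.87 became 1.41 by the poly-A reference, 1.64 by the hybridisation reference and 1.496 with the median over probe sets, and lay between 1.84 and 1.89 under the rest. The members' median of 0.16 became -0.31 and -0.072 with the poly-A and hybridisation spikes, -0.074 with the median over probe sets, 0.040 with the floor moved to the 35th percentile and 0.0018 where each array had to exceed the floor. In the last 2 cases the number of genes changed, with 8 and 6 members measured in place of 7. The 6 leave out Entpd1, whose bound near the floor is the reported median of 0.16. Of the other purinergic genes, the count at least 2-fold higher, 1 as reported, became 2 (Ak4 and P2ry14) without a floor and 2 with the floor at the 35th percentile, and 0 with the poly-A and 0 with the hybridisation spikes. The count 2-fold lower, 0 as reported, became 4 with the poly-A spikes (Entpd3, Slc29a3, P2rx5 and Panx3) and 2 with the hybridisation spikes (Entpd3 and Slc29a3). Of the cAMP genes, between 5 and 7 were at least 2-fold higher over the alternatives, and 0 were 2-fold lower except 2, Adcy7 and Prkar2b, with the poly-A spikes. The spike references moved the median over all measured genes of -0.06 to -0.52 and -0.29, and the counts over all genes of 282 higher and 359 lower to 129 and 1732 with the poly-A spikes and to 174 and 807 with the hybridisation spikes. Without a floor these counts were 538 and 556, with the floor at 100 they were 156 and 119, with the pseudocount 218 and 172, with the floor at the 35th percentile 570 and 582, and with the floor at the 65th percentile 184 and 165. With the floor at 100 or at the 65th percentile Entpd1 and P2rx7 were not measured, and Entpd1 gave no value where both arrays had to exceed the floor. No paired analysis was possible because each group holds 1 array. Signal over background limits the values of Entpd1, P2rx7 and P2ry2.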
